A study of Mus musculus with 12 samples.

Results

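The bone morphogenetic protein (BMP) ligand genes are the 7 genes Bmp1 to Bmp7, taken by symbol from a table of 32052 mouse genes. All 7 are in the table and all 7 had enough counts to be tested. They were followed across 4 groups of 3 RNA sequencing libraries made from total RNA of gut stromal cells, the supporting cells around the epithelium. The groups are GFP-positive and GFP-negative cells of the colon and GFP-positive and GFP-negative cells of the small intestine, where GFP reports expression of Rspo3, which encodes a secreted amplifier of Wnt signalling. All cells carried the Rspo3-GFP transgene label, came from animals of 8 to 12 weeks on a C57Bl6 background, and were sorted as lacking the epithelial marker EPCAM and the leukocyte marker CD45. The CD31 sort named in the design text is not used here. Nothing in the labels states whether replicates are separate animals, so a p-value measures the spread between these libraries, which may be technical.

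BMPs are secreted as dimers of the TGF-beta superfamily. They bind pairs of type I and type II serine/threonine kinase receptors, which phosphorylate Smad1, Smad5 and Smad9, and these join Smad4 and switch on genes such as the Id family. In the gut the stroma is a main source of BMPs, the signal is known to be strongest away from the crypt base and to restrain stem cell division, and antagonists such as Gremlin 1 are made near the crypt base. Bmp1 shares only the name: it encodes a secreted metalloproteinase of the astacin family that trims procollagens and cleaves the BMP antagonist Chordin.

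In GENCODE M21 on GRCm38 (the assembly also called mm10) Bmp1 (ENSMUSG00000022098) lies on chromosome 14 from 70474558 to 70520234 on the minus strand, Bmp2 (ENSMUSG00000027358) lies on chromosome 2 from 133552159 to 133562885 on the plus strand, and Bmp3 (ENSMUSG00000029335) lies on chromosome 5 from 98854415 to 98884396 on the plus strand. Bmp4 (ENSMUSG00000021835) lies on chromosome 14 from 46383520 to 46390669 on the minus strand and Bmp5 (ENSMUSG00000032179) lies on chromosome 9 from 75775364 to 75900310 on the plus strand. Bmp6 (ENSMUSG00000039004) lies on chromosome 13 from 38345107 to 38500302 on the plus strand and Bmp7 (ENSMUSG00000008999) lies on chromosome 2 from 172868012 to 172940321 on the minus strand. All 7 are annotated as protein coding, with exons that add up to between 2248 bases for Bmp4 and 8870 bases for Bmp1.

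The 6 genes Bmp2 to Bmp7 encode TGF-beta type ligands. Their coding sequences are shown because family members that resemble each other could compete for the same reads. In the same annotation Bmp2, Bmp4, Bmp5, Bmp6 and Bmp7 can be lined up without gaps over 39 bases of the region that encodes the mature ligand. Each line below reads 5′ to 3′, and capitals mark the 25 positions where all 5 genes have the same base.
Bmp2, chr2:133561530-133561568, plus strand, exon 3 of 3: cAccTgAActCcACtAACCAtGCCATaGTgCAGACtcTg
Bmp4, chr14:46384006-46384044, minus strand, exon 4 of 4: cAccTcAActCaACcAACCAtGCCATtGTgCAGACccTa
Bmp5, chr9:75893766-75893804, plus strand, exon 6 of 7: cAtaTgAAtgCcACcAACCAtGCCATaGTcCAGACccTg
Bmp6, chr13:38498789-38498827, plus strand, exon 6 of 7: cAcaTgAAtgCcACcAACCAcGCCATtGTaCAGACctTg
Bmp7, chr2:172872872-172872910, minus strand, exon 6 of 7: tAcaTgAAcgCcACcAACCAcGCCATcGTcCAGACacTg
Bmp4 matched Bmp2 at 84.6% of these bases, Bmp5 at 82.1%, Bmp7 at 79.5% and Bmp6 at 76.9%.

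The longest exact run shared by coding sequences lies upstream, in exon 4 of 7 of Bmp6 and Bmp7, and is shown with the matching window of Bmp5. In these 60-base windows capitals mark the 40 positions where all 3 genes have the same base.
Bmp5, chr9:75873302-75873361, plus strand, exon 4 of 7: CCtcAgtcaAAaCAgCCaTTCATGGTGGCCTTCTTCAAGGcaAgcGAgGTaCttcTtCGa
Bmp6, chr13:38485786-38485845, plus strand, exon 4 of 7: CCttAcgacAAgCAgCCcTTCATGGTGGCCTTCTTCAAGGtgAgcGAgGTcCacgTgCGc
Bmp7, chr2:172879417-172879476, minus strand, exon 4 of 7: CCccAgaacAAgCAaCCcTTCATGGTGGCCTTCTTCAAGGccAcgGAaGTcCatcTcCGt
The longest exact run shared by any of the 21 pairs of coding sequences was 25 bases, between Bmp6 and Bmp7 in this window. Over all annotated transcripts, 3 of the 21 pairs shared any run of 31 bases, and none of those pairs was within Bmp5, Bmp6 and Bmp7.

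Expression is given as CPM, estimated counts scaled to a common library size, which compares a gene across libraries. A gene was called when edgeR's quasi-likelihood test gave a Benjamini-Hochberg adjusted p under 0.05 over all 16757 genes tested. The libraries held 6489835 to 12286054 counts, with 18933 to 23338 genes detected in each. Rspo3 followed the sort, with 117 to 161 CPM in GFP-positive and 2.28 to 6.51 CPM in GFP-negative colon libraries, and 191 to 196 CPM in GFP-positive and 4.5 to 13.7 CPM in GFP-negative small intestinal libraries. The stromal collagen Col1a1 averaged 4128 and 4588 CPM in GFP-positive and GFP-negative colon cells and 10580 and 2755 CPM in GFP-positive and GFP-negative small intestinal cells. Marker genes of other cells were also present. The summed level of 7 lymphatic endothelial markers was 18000 to 21050 CPM in GFP-positive and 205 to 336 CPM in GFP-negative colon libraries, and 4302 to 14980 CPM in GFP-positive and 200 to 590 CPM in GFP-negative small intestinal libraries. In sorted bulk cells of this kind, fewer cells of a type and less RNA per cell cannot be told apart.

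GFP-negative cells of the colon held the high level of each of the 6 TGF-beta type genes followed here. For Bmp2, Bmp3, Bmp4, Bmp5, Bmp6 and Bmp7 the lowest of the 3 GFP-negative colon libraries lay above the highest of the other 9 libraries, an arrangement found in 3.63% of all genes tested. Together these 6 genes reached 210, 232 and 267 CPM in GFP-positive colon libraries against 1410, 1427 and 1482 CPM in GFP-negative ones. The same sum in the small intestine was 207, 168 and 331 CPM in GFP-positive libraries against 228, 504 and 290 CPM in GFP-negative ones. Bmp1 did not follow: its lowest GFP-negative colon library had 124 CPM, and its highest library elsewhere had 258 CPM.

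**Figure D1:**
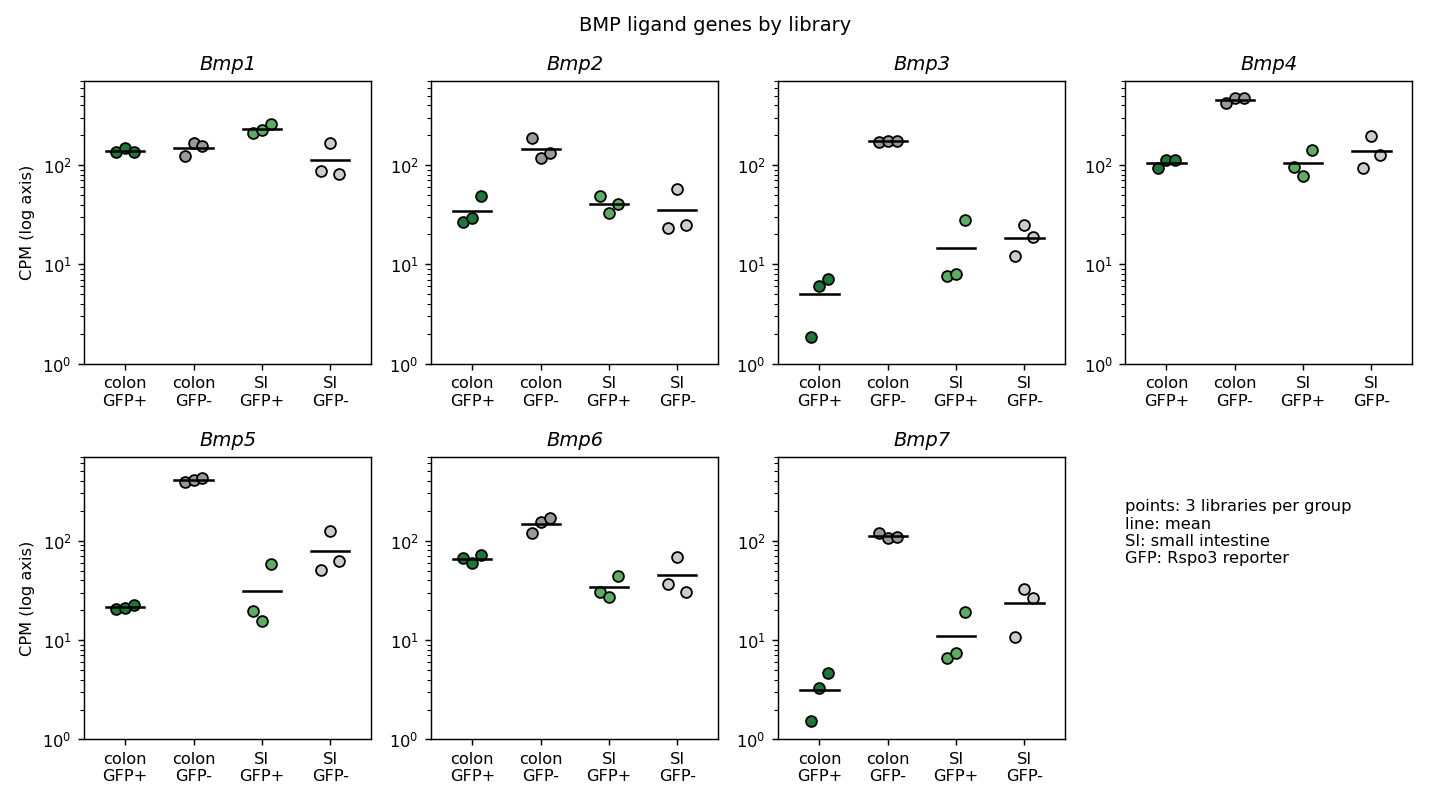
Level of each BMP gene in CPM (log axis) in the 3 libraries of each group, with points for libraries and a line for the group mean. For Bmp2 to Bmp7 the GFP-negative colon libraries lie above all 9 others, the lowest being 106 CPM for Bmp7, while Bmp1 lies between 81.8 and 258 CPM throughout.

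Between the sorted colon populations, 6 of the 7 genes were lower in GFP-positive cells and none was higher. Over all genes tested 4.06% were called lower and 4.62% higher. Bmp2 and Bmp4 encode closely related ligands that can pair with each other. Bmp2 measured 26.5, 29.3 and 48.6 CPM in GFP-positive libraries against 188, 118 and 132 CPM in GFP-negative libraries. The groups did not overlap, and Bmp2 was 4.2-fold lower in GFP-positive cells (log2 fold change -2.07 ± 0.36 SE, adjusted p = 0.00338). Bmp4 measured 93.1, 113 and 112 CPM in GFP-positive libraries against 422, 472 and 473 CPM in GFP-negative libraries. Bmp4 was the most highly counted of the 6 TGF-beta type genes in both colon populations, with a log2 fold change close to that of Bmp2 (-2.11 ± 0.28, adjusted p = 5.98e-04).

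Bmp5, Bmp6 and Bmp7 form a subgroup of the family with related prodomains and mature ligands. Bmp5 was tightly grouped, with 20.7, 21.1 and 22.6 CPM in GFP-positive and 392, 404 and 423 CPM in GFP-negative colon libraries. This is an 18.9-fold lower level in GFP-positive cells (-4.24 ± 0.50, adjusted p = 4.63e-04). Bmp7 had 1.54, 3.3 and 4.69 CPM in GFP-positive libraries, from 14, 25 and 41 estimated counts, against 119, 106 and 110 CPM in GFP-negative libraries. Its log2 fold change of -5.13 ± 0.57 (adjusted p = 3.42e-04) corresponds to a 35.1-fold lower level. Bmp6, better known as the liver ligand that drives hepcidin, was the least changed of the 6 called genes. It measured 66.5, 59.6 and 71.7 CPM in GFP-positive and 120, 153 and 170 CPM in GFP-negative libraries (-1.16 ± 0.29, adjusted p = 0.0233). With 1 colon library left out the Bmp6 call held in 1 of 6 refits, with adjusted p up to 0.115 without GFP-positive replicate 2. Bmp6 had an adjusted p of 2.09e-04 when the colon libraries were fitted alone. With the replicate number as a block its adjusted p was 0.0604.

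Bmp3 encodes an atypical ligand that opposes other BMPs in mouse bone. It measured 1.87, 6.07 and 7.09 CPM in GFP-positive colon libraries against 170, 173 and 175 CPM in GFP-negative libraries. With the GFP-negative libraries nearly identical, the difference was 34.5-fold (-5.11 ± 0.62, adjusted p = 5.91e-04). Bmp1 was level, with 136, 149 and 134 CPM in GFP-positive against 124, 168 and 155 CPM in GFP-negative libraries. These groups overlapped and Bmp1 was not called (-0.091 ± 0.25, adjusted p = 0.904). Complete separation downwards, seen for the 6 called genes, occurred in 17.8% of all genes tested. The calls of Bmp2, Bmp3, Bmp4, Bmp5 and Bmp7 held in 6 of 6 refits with 1 colon library left out.

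Markers of several cell types were also lower in GFP-positive colon cells. Of 9 tested markers of subepithelial telocytes, the PDGFRA-high cells under the epithelium that are known to make BMPs, 6 were lower in GFP-positive cells, and the list summed to 931 to 1252 CPM in GFP-positive and 2570 to 3621 CPM in GFP-negative libraries. Most of that sum came from Pdgfra and Tnc. Sox6 averaged 3.29 CPM in GFP-positive and 119 CPM in GFP-negative colon cells (-5.18, adjusted p = 0.00152), Nrg1 2.46 CPM in GFP-positive and 100.1 CPM in GFP-negative cells (-5.33, adjusted p = 0.00653) and Foxl1 0.969 CPM in GFP-positive and 22.01 CPM in GFP-negative cells (-4.52, adjusted p = 0.00969), and Vstm2a had no count in either colon group. Of 6 smooth muscle markers 5 were lower, with sums of 470 to 546 CPM in GFP-positive and 2700 to 3509 CPM in GFP-negative libraries. Lower too were 3 of 5 tested pericyte, 3 of 4 Cajal cell and 3 of 6 enteric glial markers. All 6 pan-endothelial markers were higher in GFP-positive cells. Over all genes tested in the colon 4.06% were called lower and 4.62% higher. In the small intestine none of these 6 BMP genes was called. There 4 of 6 smooth muscle and 6 of 6 enteric glial markers were lower in GFP-positive cells. The counts were 2 of 5 for pericyte, 1 of 4 for Cajal cell and 0 of 9 for telocyte markers. Epithelial markers were also counted, although the sort was for cells lacking EPCAM. The 8 epithelial markers summed to 301 to 1632 CPM in GFP-positive and 1022 to 2356 CPM in GFP-negative colon libraries, and 1 of them, Cdx2, was called lower in GFP-positive colon cells. In the small intestine they summed to 12.2 to 17.6 CPM in GFP-positive libraries, where Cdx2 had no count, and 226 to 752 CPM in GFP-negative libraries, and 7 of 8 were lower in GFP-positive cells. Over all genes tested in the small intestine 6.63% were called lower. The part of cell make-up in the BMP differences was not tested.

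In the small intestine the same sort gave a different picture. Only Bmp1 passed the test, and it was higher in GFP-positive cells. Over all genes tested 4.24% were called higher and 6.63% lower. It measured 209, 226 and 258 CPM in GFP-positive libraries against 87.4, 165 and 81.8 CPM in GFP-negative libraries. The groups did not overlap, as for 9.56% of all genes tested in this direction, and the level was 2.07-fold higher in GFP-positive cells (1.05 ± 0.25, adjusted p = 0.0162). The adjusted p was 0.0579 without GFP-negative replicate 1, 0.0518 without GFP-positive replicate 3 and 0.118 when the small intestinal libraries were fitted alone.

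The 6 TGF-beta type genes were not called between the small intestinal populations. Bmp5 came nearest, with 19.5, 15.7 and 58.6 CPM in GFP-positive libraries against 50.4, 124 and 63.2 CPM in GFP-negative libraries. GFP-positive replicate 3 lay inside the GFP-negative range, so the groups overlapped (-1.35 ± 0.45, adjusted p = 0.0823). Without that library the adjusted p was 0.003, and with all libraries it was 0.0112 by DESeq2 and 0.0353 by limma-voom. Bmp7 measured 6.57, 7.49 and 19 CPM in GFP-positive and 10.8, 33 and 26.5 CPM in GFP-negative libraries (-1.10 ± 0.48, adjusted p = 0.192). It had the same high GFP-positive replicate 3, without which its adjusted p was 0.0412. Within the same-numbered pairs both Bmp5 and Bmp7 were lower in GFP-positive cells in 3 of 3 pairs. The share of all genes with that arrangement was not computed. With the replicate number as a block neither was called, with an adjusted p of 0.096 for Bmp5 and 0.12 for Bmp7.

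Bmp3 had 7.65, 7.98 and 28.2 CPM in GFP-positive and 12.1, 24.7 and 18.8 CPM in GFP-negative small intestinal libraries (-0.35 ± 0.53, adjusted p = 0.766). Its GFP-positive replicate 3 was the highest of the 6 libraries, and on the deposited log2(TPM + 1) scale the value was 0.044. Bmp2 measured 48.6, 33.2 and 40.3 CPM in GFP-positive and 23.2, 57.9 and 25.1 CPM in GFP-negative libraries. The wide GFP-negative range enclosed all of the GFP-positive values (0.20 ± 0.35, adjusted p = 0.806). Bmp4 measured 94.7, 76.8 and 140 CPM in GFP-positive and 94.3, 195 and 126 CPM in GFP-negative libraries (-0.41 ± 0.27, adjusted p = 0.40). Bmp6 measured 30.2, 27.1 and 44.2 CPM in GFP-positive and 36.7, 69 and 30.4 CPM in GFP-negative libraries (-0.43 ± 0.29, adjusted p = 0.42). Both pairs of groups overlapped.

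The spread within the small intestinal groups was shared between genes. GFP-positive replicate 3 was the highest of its group for 6 of the 7 genes, Bmp2 being the exception, and GFP-negative replicate 2 was the highest of its group for all 7. GFP-positive replicate 3 also had the highest telocyte marker sum of its group, 1772 CPM against 1318 and 1110 CPM in replicates 1 and 2, and the lowest lymphatic marker sum, 4302 CPM against 11220 and 14980 CPM. GFP-negative replicate 2 had 2476 CPM of telocyte markers against 1230 and 986 CPM in replicates 1 and 3, and 3737 CPM of smooth muscle markers against 2764 and 1392 CPM. GFP-negative replicate 3 stood apart in leukocyte markers, with a sum of 1131 CPM against 16 and 10.9 CPM. The part of these markers in the BMP values was not tested.

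**Figure D2:**
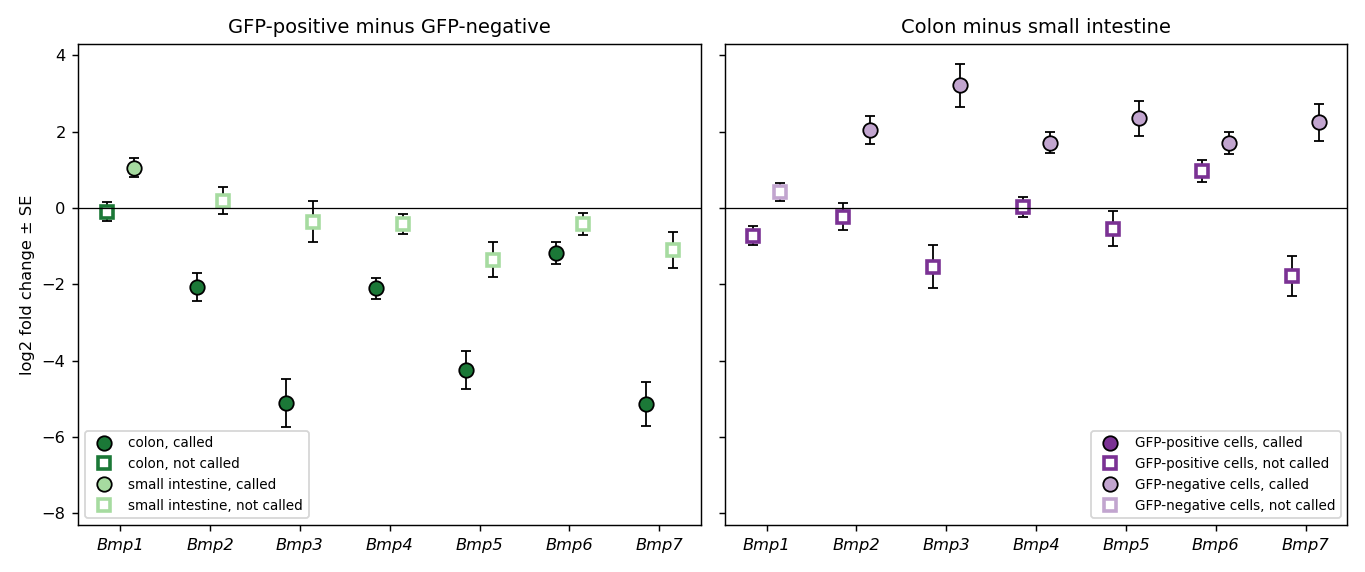
Log2 fold change ± SE of each BMP gene between GFP-positive and GFP-negative cells in each tissue (left) and between colon and small intestine in each sorted population (right). Filled circles were called at an adjusted p under 0.05 and open squares were not; the large negative values on the left are those of Bmp3, Bmp5 and Bmp7 in the colon, and the 6 called values on the right are all in GFP-negative cells.

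Whether the effect of the sort differed between tissues was tested directly, as the colon difference minus the small intestinal difference on the log2 scale. It was negative and called for 5 of the 7 genes, where 0.895% of all genes tested were called in that direction. The values were -4.75 ± 0.79 for Bmp3 (adjusted p = 0.018), -4.04 ± 0.71 for Bmp7 (adjusted p = 0.0196) and -2.89 ± 0.64 for Bmp5 (adjusted p = 0.0432). Bmp2 had -2.27 ± 0.50 (adjusted p = 0.0413) and Bmp4 had -1.69 ± 0.38 (adjusted p = 0.0425). Bmp6 (-0.74 ± 0.41, adjusted p = 0.456) and Bmp1 (-1.14 ± 0.35, adjusted p = 0.119) were not called.

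The 5 calls lay near the threshold. With the replicate number as a block 2 of them were called, Bmp3 and Bmp7, and the adjusted p was 0.0746 for Bmp2, 0.066 for Bmp4 and 0.0825 for Bmp5. With 1 of the 12 libraries left out, Bmp3 and Bmp7 were each called in 9 of 12 refits, Bmp2 in 3, and Bmp4 and Bmp5 in 2. No member was called without colon GFP-positive replicate 2, colon GFP-negative replicate 2 or colon GFP-negative replicate 3, and all 7 were called without small intestinal GFP-negative replicate 2.

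Set directly against the small intestine, GFP-negative cells of the colon had higher levels of 6 of the 7 genes, where 2.2% of all genes tested were called higher. The libraries are those given above, and for each of the 6 genes the colon values all lay above the small intestinal ones, as they did for 11.5% of all genes tested. Bmp3 averaged 172 ± 2.63 CPM in the colon and 18.5 ± 6.26 CPM in the small intestine (SD, n = 3 each), a 9.29-fold higher level (3.22 ± 0.56 SE, adjusted p = 0.0113). Bmp5 averaged 406 ± 15.7 CPM in the colon and 79.3 ± 39.6 CPM in the small intestine, 5.12-fold higher (2.35 ± 0.46 SE, adjusted p = 0.0177). Bmp7 was 4.76-fold higher in the colon (2.25 ± 0.49, adjusted p = 0.0274) and Bmp2 4.11-fold higher (2.04 ± 0.36, adjusted p = 0.0104).

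Bmp4 averaged 456 ± 29.2 CPM in colon and 138 ± 51.4 CPM in small intestinal GFP-negative cells, and Bmp6 averaged 148 ± 25.1 CPM in colon and 45.4 ± 20.7 CPM in small intestinal GFP-negative cells (SD, n = 3 each). Their log2 differences were alike, 1.72 ± 0.28 for Bmp4 (adjusted p = 0.00563) and 1.70 ± 0.29 for Bmp6 (adjusted p = 0.00848). Bmp1 overlapped between the tissues and was not called (0.42 ± 0.25, adjusted p = 0.411). With 1 library left out, Bmp5 was called in 3 of 6 refits and Bmp7 in 2 of 6, with adjusted p up to 0.067 for Bmp5 and 0.0937 for Bmp7 without colon replicate 3. The telocyte markers of the GFP-negative libraries summed to 2570 to 3621 CPM in the colon and 986 to 2476 CPM in the small intestine, and their part was not tested. None of the 8 epithelial markers was called between the tissues in GFP-negative cells. Their sums did not overlap, with 1022 to 2356 CPM in the colon and 226 to 752 CPM in the small intestine. Their median log2 difference was 1.77 against -0.057 over all genes tested, and their part was not tested either.

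Among GFP-positive cells no member was called between colon and small intestine, where 4.57% of all genes tested were called in either direction. Of the 7 genes 4 had an unadjusted p under 0.05, and the share of all genes under that limit was not computed. DESeq2 called 3 of them, Bmp3, Bmp6 and Bmp7, and 1390 genes among all. By limma-voom 0 of the 7 were called, and 364 genes among all. Bmp6 measured higher in the colon without overlap (0.96 ± 0.29, adjusted p = 0.0897). Bmp7 (-1.79 ± 0.52, adjusted p = 0.0861), Bmp3 (-1.54 ± 0.56, adjusted p = 0.186) and Bmp1 (-0.72 ± 0.25, adjusted p = 0.142) measured lower in the colon, also without overlap. Over all genes tested 12.9% were separated upwards and 11.8% downwards in this way. Bmp2 (-0.23 ± 0.35, adjusted p = 0.835), Bmp4 (0.026 ± 0.27, adjusted p = 0.982) and Bmp5 (-0.54 ± 0.45, adjusted p = 0.652) overlapped. In the same comparison 7 of the 8 epithelial markers were higher in the colon, and their part in the BMP values was not tested.

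The relation between the ligands was read on TPM, which corrects for transcript length. Bmp4 had the highest TPM of the 6 TGF-beta type genes in every library. Its mean was 40.6 ± 17.5 TPM in GFP-positive and 163 ± 7.09 TPM in GFP-negative colon cells, and 31.9 ± 15.1 TPM in GFP-positive and 35.5 ± 19.2 TPM in GFP-negative small intestinal cells (SD, n = 3 each). Below it, GFP-positive colon cells had 2.52 ± 0.42 TPM of Bmp6, 1.37 ± 0.59 of Bmp2, 0.768 ± 0.0972 of Bmp5, 0.149 ± 0.0986 of Bmp3 and 0.121 ± 0.0677 of Bmp7. Neighbours in this order were set apart by more than the sum of their SDs, except Bmp2 and Bmp5, and Bmp3 and Bmp7.

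GFP-negative colon cells had a different second ligand. Bmp5 followed Bmp4 with 16.4 ± 2.00 TPM, ahead of Bmp6 (6.13 ± 1.48), Bmp2 (5.96 ± 0.99), Bmp3 (4.61 ± 0.23) and Bmp7 (4.60 ± 0.26). By the same measure Bmp6 and Bmp2, and Bmp3 and Bmp7, were within their spread. Bmp5 also came second in GFP-negative small intestinal cells, with 2.02 ± 0.65 TPM, ahead of Bmp6 (1.30 ± 0.44), Bmp2 (0.944 ± 0.391), Bmp7 (0.665 ± 0.28) and Bmp3 (0.262 ± 0.0493), and here only Bmp4 and Bmp3 were set apart from their neighbours. In GFP-positive small intestinal cells Bmp2 (1.22 ± 0.51), Bmp6 (0.977 ± 0.348), Bmp5 (0.847 ± 0.652), Bmp7 (0.348 ± 0.163) and Bmp3 (0.325 ± 0.321) followed Bmp4, each within the spread of the next. Bmp1 stood at 4.93 ± 0.32 TPM in GFP-positive and 6.30 ± 0.42 TPM in GFP-negative colon cells, and at 6.18 ± 1.28 and 3.25 ± 0.37 TPM in GFP-positive and GFP-negative small intestinal cells.

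The size of the Bmp4 lead depended on how length was counted. Bmp4 made up 88.1% ± 4.87 of the TPM of the 6 genes in GFP-positive and 81.3% ± 1.48 in GFP-negative colon cells. On CPM per kilobase of merged exons the same shares were 58.5% ± 3.38 and 46.7% ± 2.01, with Bmp5 at 6.65% ± 0.46 in GFP-positive and 23.3% ± 0.21 in GFP-negative cells (SD, n = 3 each). TPM over CPM per kilobase was 0.447 to 1.47 for Bmp4 across the 12 libraries and 0.0785 to 0.155 for Bmp2. GENCODE M21 gives Bmp4 4 transcripts, among them a retained-intron transcript of 258 bases, and Bmp2 a single one of 3555 bases. The part of that short transcript in the Bmp4 TPM was not tested.

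**Figure D3:**
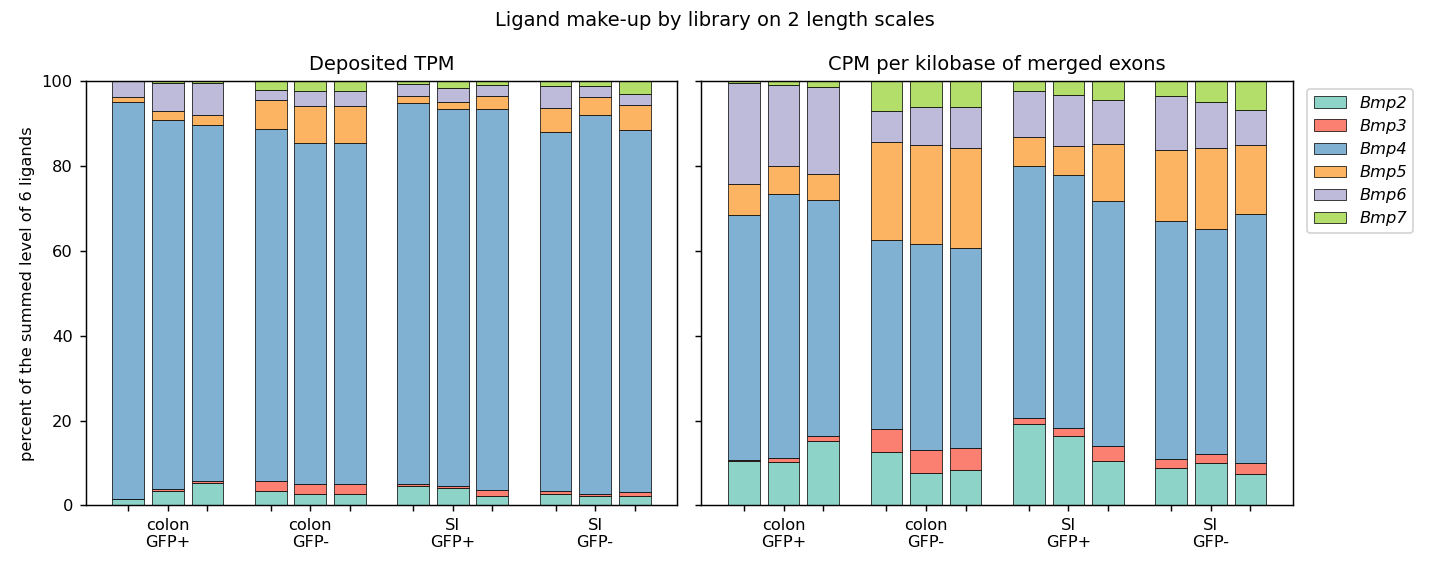
Share of each of the 6 TGF-beta type ligand genes in their summed level, per library, on deposited TPM (left) and on CPM per kilobase of merged exons (right). Bmp4 is the largest share in all 12 libraries on both scales, and the Bmp5 and Bmp3 shares are larger in GFP-negative than in GFP-positive colon libraries.

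Across the 12 libraries the 7 profiles were compared by the root mean square difference of log2 CPM after centring each gene. Bmp2 and Bmp4 (0.41) and Bmp3 and Bmp7 (0.41) were the closest pairs, then Bmp4 and Bmp6 (0.45) and Bmp2 and Bmp6 (0.58). Bmp5 lay between them, at 0.63 from Bmp7, 0.64 from Bmp3 and 0.88 from Bmp4. Bmp1 was 0.99 or more from every other member. These distances are a description over the same 12 libraries.

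By the same measure the genes nearest to each member were taken from 10844 well-expressed genes outside the 7 members. For Bmp1 they were Ltbp3 (0.10), which encodes a binding protein of latent TGF-beta, Lrp1 (0.12) and Thra (0.16). For Bmp4 they were Adam19 (0.16), which encodes a membrane metalloproteinase, Pcdh7 (0.26) and Ptger1 (0.30). Bmp6 was closest to Fn1 (0.18), the gene of fibronectin, then Ecm1 (0.31) and Lurap1l (0.34), and Bmp2 to Htra1 (0.40), Col4a5 (0.40) and Robo1 (0.42). Outside the members, nearest to Bmp3 and Bmp7 was Syt13 (0.71 from Bmp3 and 0.57 from Bmp7). The next for Bmp3 were Tmem158 (0.78) and Tnfsf13b (0.83), and for Bmp7 Rgs10 (0.77) and the Wnt ligand Wnt4 (0.77). Bmp5 was nearest to Tmem158 (0.45), Hpse (0.60) and Wnt4 (0.60). Wnt4 itself averaged 3.89 and 63.5 CPM in GFP-positive and GFP-negative colon cells and 5.12 and 23 CPM in GFP-positive and GFP-negative small intestinal cells.

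The promoters of members that were lower together in GFP-positive colon cells were read from RefSeq (GRCm38.p6), from 250 bases before to 50 after the start of transcription. The table used held 3 of the 7 members, Bmp4, Bmp5 and Bmp6. Both strands were searched for the forkhead core TGTTTAC, the TCF/LEF motif CTTTGAT, the GLI core ACCACCC, the BMP response core GGCGCC, the TATA box TATAAA and the GC box GGGCGG. Capitals mark a match on either strand.
Bmp4, chr14:46390620-46390919, minus strand: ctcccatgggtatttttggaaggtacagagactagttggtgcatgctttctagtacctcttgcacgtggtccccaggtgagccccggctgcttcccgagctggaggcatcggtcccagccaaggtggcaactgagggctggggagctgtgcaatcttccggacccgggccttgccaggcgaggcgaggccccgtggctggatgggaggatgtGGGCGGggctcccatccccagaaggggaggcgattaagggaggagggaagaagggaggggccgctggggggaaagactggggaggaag
Bmp5, chr9:75775115-75775414, plus strand: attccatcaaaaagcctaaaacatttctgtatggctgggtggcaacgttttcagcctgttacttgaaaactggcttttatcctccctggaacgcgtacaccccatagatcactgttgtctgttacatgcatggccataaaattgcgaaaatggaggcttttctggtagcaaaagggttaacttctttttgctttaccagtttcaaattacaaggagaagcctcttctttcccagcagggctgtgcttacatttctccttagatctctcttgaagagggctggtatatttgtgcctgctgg
Bmp6, chr13:38345466-38345765, plus strand: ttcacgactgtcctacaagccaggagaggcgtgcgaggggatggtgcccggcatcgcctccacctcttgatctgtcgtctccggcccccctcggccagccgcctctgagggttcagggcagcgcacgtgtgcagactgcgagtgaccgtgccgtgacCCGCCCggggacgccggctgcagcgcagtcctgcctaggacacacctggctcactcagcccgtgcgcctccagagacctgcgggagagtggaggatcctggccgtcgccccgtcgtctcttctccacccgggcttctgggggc
Bmp4 had a GC box at position -38 from the start and Bmp6 had one at -93 on the opposite strand, a motif present in 35.7% of 32851 promoters of this length. None of the other motifs was in these windows. Among all promoters 3.65% held the forkhead core, 3.73% the TCF/LEF motif, 4.61% the GLI core, 11.9% the BMP response core and 13.6% the TATA box.

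Of 12 other BMP and GDF ligand genes listed, 4 were tested. Gdf6, a ligand known for its part in joint and skull formation, was the one called and was higher in GFP-positive cells of both tissues. It averaged 12.1 and 2.01 CPM in GFP-positive and GFP-negative colon cells (2.61 ± 0.70, adjusted p = 0.0418) and 75.4 and 2.73 CPM in GFP-positive and GFP-negative small intestinal cells (4.74 ± 0.73, adjusted p = 0.0021). The colon call held in 1 of 6 refits with a library left out, with adjusted p up to 0.154 without GFP-negative replicate 2. Over all genes tested 4.62% were called higher in GFP-positive colon cells and 4.24% in GFP-positive small intestinal cells. Furin-type convertases cut BMP precursors: Pcsk5 was higher in GFP-positive colon cells (535 CPM in GFP-positive against 193 CPM in GFP-negative cells, 1.47 ± 0.25, adjusted p = 0.00259) and Pcsk6 in GFP-positive small intestinal cells (268 CPM in GFP-positive against 113 CPM in GFP-negative cells, 1.25 ± 0.25, adjusted p = 0.00743), each 1 of 4 tested.

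In the colon 2 of 7 type I and type II receptor genes were lower in GFP-positive cells and none was higher, where 4.06% of all genes tested were called lower. These were Bmpr1a (94.9 CPM in GFP-positive against 179 CPM in GFP-negative cells, -0.91 ± 0.21, adjusted p = 0.0163) and Bmpr1b (0.267 CPM in GFP-positive against 5.11 CPM in GFP-negative cells, -4.17 ± 1.15, adjusted p = 0.0405), and with a library left out they held in 2 and 1 of 6 refits. GFP-positive small intestinal cells had 1 of 7 higher, where 4.24% of all genes tested were called higher. This was the type II receptor gene Acvr2a (37.6 CPM in GFP-positive against 16.7 CPM in GFP-negative cells, 1.17 ± 0.28, adjusted p = 0.0188; 4 of 6 refits). Among 5 co-receptor genes tested, Tgfbr3, which encodes betaglycan, was higher in GFP-positive small intestinal cells (670 CPM in GFP-positive against 304 CPM in GFP-negative cells, 1.14 ± 0.23, adjusted p = 0.00675). None was called in the colon, where Tgfbr3 measured 515 CPM in GFP-positive against 403 CPM in GFP-negative cells and Eng 293 CPM in GFP-positive against 163 CPM in GFP-negative cells.

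Among the Smad genes that carry the signal, Smad1 was higher in GFP-positive cells of both tissues. It averaged 144 and 50.2 CPM in GFP-positive and GFP-negative colon cells (1.52 ± 0.24, adjusted p = 0.00198) and 122 and 54.2 CPM in GFP-positive and GFP-negative small intestinal cells (1.17 ± 0.24, adjusted p = 0.00821). Smad9, itself known to be induced by BMP signalling, was lower in GFP-positive colon cells (3.66 CPM in GFP-positive against 25.9 CPM in GFP-negative cells, -2.82 ± 0.27, adjusted p = 9.75e-05). Its GFP effect differed between the tissues (-2.53 ± 0.37, adjusted p = 0.00631), and this call held in 12 of 12 refits with a library left out. Smad5 and Smad4 were not called in either tissue.

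Of 9 tested BMP response genes, 3 were lower and 1 higher in GFP-positive colon cells, with a median log2 fold change of -0.45 against -0.028 over all genes tested, of which 4.06% were called lower and 4.62% higher. The Id genes, the best known BMP targets, were not called in the colon. Id1 averaged 16 CPM in GFP-positive and 23.2 CPM in GFP-negative colon cells (-0.54, adjusted p = 0.454), Id2 32 CPM in GFP-positive and 31.3 CPM in GFP-negative cells (0.031, adjusted p = 0.98), Id3 60.6 CPM in GFP-positive and 72.3 CPM in GFP-negative cells (-0.25, adjusted p = 0.694) and Id4 16.2 CPM in GFP-positive and 19.5 CPM in GFP-negative cells (-0.26, adjusted p = 0.843). The inhibitory Smad gene Smad6 averaged 5.98 and 28.3 CPM in GFP-positive and GFP-negative colon cells (-2.24 ± 0.34, adjusted p = 0.0013). Atoh8 averaged 2.35 CPM in GFP-positive and 17.8 CPM in GFP-negative colon cells (-2.91 ± 0.40, adjusted p = 6.93e-04) and its GFP effect also differed between the tissues (-2.92 ± 0.53, adjusted p = 0.0196). Smad7 was lower (-0.71 ± 0.20, adjusted p = 0.0471) and Hey1, a Notch target that is also expressed in endothelium, was higher in GFP-positive colon cells (35.5 CPM in GFP-positive against 6 CPM in GFP-negative cells, 2.56 ± 0.56, adjusted p = 0.0141). Of the same 9 genes, 4 were lower and none higher in GFP-positive small intestinal cells, with a median of -0.46 against -0.033 over all genes tested, of which 6.63% were called lower. These were Msx1 (0.966 CPM in GFP-positive against 8.78 CPM in GFP-negative cells, adjusted p = 0.00272), Smad7 (26.3 CPM in GFP-positive against 48.1 CPM in GFP-negative cells, adjusted p = 0.0158), Id1 (6.24 CPM in GFP-positive against 16.1 CPM in GFP-negative cells, adjusted p = 0.0261) and Smad6 (7.58 CPM in GFP-positive against 17 CPM in GFP-negative cells, adjusted p = 0.0371). With 1 library left out, Msx1 and, in the colon, Smad6 and Atoh8 held in 6 of 6 refits, Hey1 and small intestinal Smad7 in 3, and small intestinal Id1 and Smad6 and colon Smad7 in 1. Pan-endothelial markers summed to 1742 to 2061 CPM in GFP-positive and 140 to 446 CPM in GFP-negative colon libraries, and their part was not tested.

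The few BMP antagonist genes that were called went both ways. Of 13 tested, 1 was higher and 2 lower in GFP-positive colon cells, and 1 was higher and 1 lower in GFP-positive small intestinal cells. Over all genes tested 4.62% were called higher and 4.06% lower in the colon, and 4.24% higher and 6.63% lower in the small intestine. Grem1, the gene of Gremlin 1, reached 872, 788 and 762 CPM in GFP-positive colon libraries against 79.4, 88 and 113 CPM in GFP-negative ones. Small intestinal levels were 1033, 538 and 1534 CPM in GFP-positive libraries against 43.6, 76.3 and 31.4 CPM in GFP-negative ones. It was called in the colon (3.11 ± 0.39, adjusted p = 4.89e-04) and in the small intestine (4.36 ± 0.42, adjusted p = 1.46e-04). Twsg1, whose product binds BMPs together with Chordin, was lower in GFP-positive colon cells (139 CPM in GFP-positive against 281 CPM in GFP-negative cells, -1.01 ± 0.20, adjusted p = 0.00576). Sostdc1, a further secreted antagonist, averaged 0.0366 CPM in GFP-positive and 2.35 CPM in GFP-negative colon cells (adjusted p = 0.00274) and 0.0394 CPM in GFP-positive and 11.9 CPM in GFP-negative small intestinal cells (adjusted p = 4.13e-04).

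Gremlin 1 binds Bmp2, Bmp4 and Bmp7, so its level was set against the sum of these 3 genes in each library. On TPM the ratio was 0.446, 0.825 and 0.771 in GFP-positive colon libraries against 0.0141, 0.0197 and 0.0231 in GFP-negative ones. For small intestinal cells it was 0.88, 0.593 and 0.794 in GFP-positive libraries against 0.0495, 0.026 and 0.0266 in GFP-negative ones. On CPM per kilobase the ratio was 2.84 to 4.27 in GFP-positive and 0.0708 to 0.0992 in GFP-negative colon libraries, so its absolute size, but not the separation of the groups, depended on the length scale. The ratio is built from the Grem1 and ligand levels given above and is not a separate result. It compares transcripts and not protein.

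**Figure D4:**
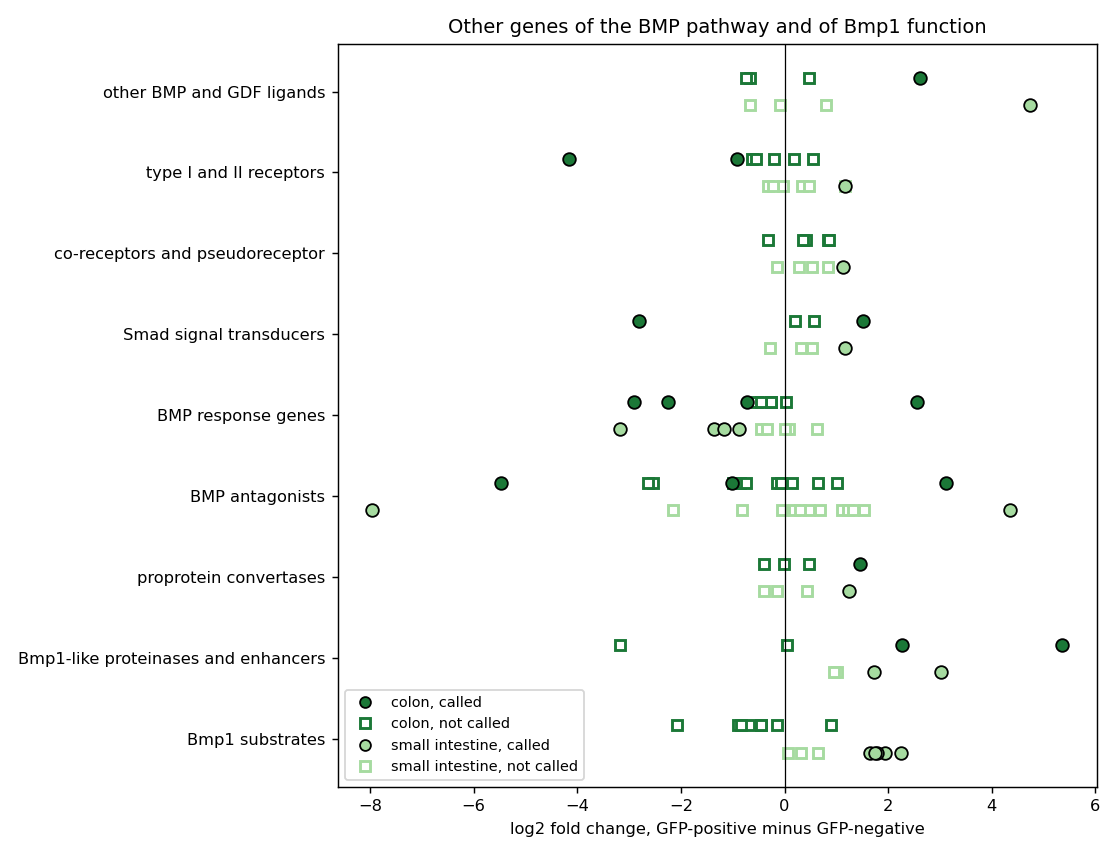
Log2 fold change between GFP-positive and GFP-negative cells of the tested genes of 9 lists around the BMP ligands, in the colon and in the small intestine. Filled circles were called at an adjusted p under 0.05; Gdf6 is the called ligand at the top, and the Bmp1 substrates called in the small intestine stand to the right of 0.

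Bmp1 has its own partners. Pcolce and Pcolce2 encode enhancers of its procollagen cleavage, and Tll1 a related proteinase. Both enhancers were higher in GFP-positive small intestinal cells, Pcolce at 310 CPM in GFP-positive against 93.8 CPM in GFP-negative cells (1.72 ± 0.33, adjusted p = 0.00537) and Pcolce2 at 161 CPM in GFP-positive against 19.8 CPM in GFP-negative cells (3.02 ± 0.26, adjusted p = 8.03e-05). In the colon Pcolce2 was again higher (132 CPM in GFP-positive against 27.4 CPM in GFP-negative cells, 2.27 ± 0.25, adjusted p = 2.33e-04), Pcolce averaged 230 CPM in GFP-positive against 223 CPM in GFP-negative cells, and Tll1 was higher in GFP-positive cells (83.9 CPM in GFP-positive against 2.05 CPM in GFP-negative cells, 5.36 ± 0.71, adjusted p = 0.00101). The 8 tested genes for Bmp1 substrates had a median log2 fold change of 1.70 in the small intestine against -0.033 over all genes tested. Of these 8, 5 were higher in GFP-positive small intestinal cells, where 4.24% of all genes tested were called higher. Among them were Dcn (8276 CPM in GFP-positive against 1747 CPM in GFP-negative cells, 2.24 ± 0.36, adjusted p = 0.00177), Lox (153 CPM in GFP-positive against 45.6 CPM in GFP-negative cells, 1.74 ± 0.27, adjusted p = 0.00162), Col1a2 and Col1a1. None of the 8 was called in the colon, where the median was -0.57. For the difference of GFP effects between the tissues 0.895% of all genes tested were called lower. The difference between the tissues was itself called for 3 of the 8, Lox (-2.21 ± 0.38, adjusted p = 0.0159), Col1a2 (-2.23 ± 0.50, adjusted p = 0.0425) and Col3a1 (-2.33 ± 0.54, adjusted p = 0.0451), of which Lox held in 11 of 12 refits with a library left out and the others in 1.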

How the data were processed

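Per the submitters' processing notes the reads were processed with Salmon 1.1.0 and R 3.6.1 on mm10; the annotation, strand setting and filters are not given in the sources used here. The authors deposited estimated counts per gene, whole numbers in 100% of cells and so taken as rounded, and a second table on the log2 scale, log2(TPM + 1). Symbols came from GENCODE M21 for 32001 of 32052 identifiers. Annotated exons of Bmp4 share 89 bases with the antisense gene Gm15217. Those of Bmp5 share 1878 bases with the antisense gene Gm26903 (at most 4 counts in any library). Those of Bmp6 share 224 bases with the antisense gene Txndc5, which measured 81.2 to 727 CPM and lay above Bmp6 in every library. The part of these overlaps in the counts was not tested.

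Counts were tested with edgeR 4.0.16 in R 4.3.3 (quasi-likelihood, robust; TMM scaling; filterByExpr at a minimum count of 10), with 1 mean per group over 12 libraries and Benjamini-Hochberg adjustment over 16757 genes. SEs were taken from the fold change and its F statistic. The code was tested on simulated data. Counts and depth bound counting error only.

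Members, lists and comparisons were chosen with earlier results of these data known. All 7 members are named; of each list up to 4 genes with the smallest adjusted p per comparison, or the 2 with the highest CPM where none was called. A listed antagonist gene is not reported here. Alternatives were RLE scaling, no filter, DESeq2 1.42.0, limma-voom (limma 3.58.1), both log2 TPM scales, fits of the compared libraries alone, protein-coding genes alone, a replicate block, and leaving out each library. Same-numbered small intestinal libraries deviated together (correlations 0.323, 0.179 and 0.166), so these numbers were taken as pairs from the data. Colon numbers (0.00933, 0.0465 and 0.0903) and numbers across tissues were not taken as pairs. Between the tissues, GFP-positive libraries of replicates 1, 2 and 3 gave 0.0204, 0.0496 and 0.054. GFP-negative libraries gave 0.0976, 0.0281 and 0.223, the last, for replicate 3, lying above the small intestinal 0.179 and 0.166. The main fit took all libraries as independent. Per the file headers, same-numbered small intestinal columns share a prefix between the sorts, and so do those of replicates 2 and 3 of the colon. The prefix number of colon replicate 3 also recurs in replicate 3 of the small intestine. The labels do not say what these prefixes mark.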

Additional observations from a re-analysis of the deposited data

Results flagged for a closer look

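For 5 BMP genes the effect of the sort differed between the tissues by a direct test. The difference of log2 fold changes, colon minus small intestine, was -2.27 for Bmp2, -4.75 for Bmp3, -1.69 for Bmp4, -2.89 for Bmp5 and -4.04 for Bmp7. Over all genes tested 0.895% were called in that direction. With a library left out, Bmp3 and Bmp7 were each called in 9 of 12 refits, Bmp2 in 3, and Bmp4 and Bmp5 in 2. With the replicate number as a block only Bmp3 and Bmp7 were called.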

How the results depend on the processing

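The colon GFP comparison called 6 members under every alternative except 5 in the replicate block and on log2(TPM + 0.1), which lost Bmp6 (adjusted p = 0.0604 and 0.0626), and 5 to 6 with a library left out. The small intestinal comparison called 1 member, 2 by DESeq2 and by limma-voom, 0 with the compared libraries alone, and 0 to 2 with a library left out. The difference of effects called 5 members, 2 on log2(TPM + 0.1), 2 with the replicate block, 4 to 6 under the others, and 0 to 7 with a library left out. GFP-positive cells between tissues gave 0 members, 1 without a filter, 3 by DESeq2, 2 with the compared libraries alone, 1 (Bmp7, adjusted p = 0.0331) with the replicate block, and 0 with any library left out. Between tissues that block joined the same replicate numbers of both tissues, although these were not taken as pairs. GFP-negative cells gave 6 members, 4 without a filter, 7 on both TPM scales, and 4 to 7 with a library left out. The block changed no other member call.

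Over all genes, the small intestinal count was 1821, with 671 on log2(TPM + 1), 982 on log2(TPM + 0.1), 850 with the compared libraries alone and 1239 to 2644 with a library left out. In the colon it was 1456, with 3016 for the compared libraries alone and 816 to 1140 with a library left out. The difference of effects gave 345, with 1088 by DESeq2, 179 by limma-voom, 160 and 106 on the TPM scales with pseudocounts of 1 and 0.1, and 69 to 1044 with a library left out. GFP-positive cells between tissues gave 765, with 1390 by DESeq2, 364 by limma-voom, 376 and 502 on the TPM scales and 416 to 613 with a library left out. GFP-negative cells gave 706, with 1635 by DESeq2, 1509 and 1394 on the TPM scales, 406 with the compared libraries alone and 187 to 1229 with a library left out. For the difference of effects the compared libraries are all 12, so that alternative adds nothing.

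On log2(TPM + 1) the share of calls that were higher in the colon was 82.7% against 60.3% in GFP-positive and 87.3% against 52.3% in GFP-negative cells, and the median of all genes was 0.13 and 0.19. Directions turned only for members that were not called. On log2(TPM + 1) Bmp3 had 0.044 in the small intestine, and Bmp2 had 0.093 between tissues in GFP-positive cells; on log2(TPM + 0.1) Bmp2 had 0.16 and Bmp5 0.10 there. With a library left out, small intestinal values ran from -0.037 to 0.76 for Bmp2 and -0.66 to 0.0175 for Bmp6, colon values from -0.21 to 0.014 for Bmp1, and GFP-positive values between tissues from -0.86 to 0.29 for Bmp5 and -0.15 to 0.30 for Bmp4. The cause was not tested. With 3 libraries a group and as few as 14 counts for Bmp7, small differences among low members are not detectable at this depth.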
